A study of Mus musculus with 48 samples.

Results

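The livers of 5 restricted *Ercc1*Δ/− mice (DR 30%) were compared with those of 5 *Ercc1*Δ/− mice with free access to food (Control), which are 10 of the 24 mice in the data. *Ercc1*Δ/− mice carry a null allele of *Ercc1* and an allele that encodes a truncated protein, in an F1 C57BL6J/FVB hybrid background, and all groups used here were of this background and 11 weeks of age. The DR 30% mice had received less food from 7 weeks of age, with the full restriction of 30% from 9 weeks, given just before the dark period, while Control mice ate the same AIN93G diet ad libitum. WT littermates on the same restriction (WT-DR, n = 5) and on free food (WT-Control, n = 5) are set beside them where the response of both genotypes is compared. The 4 *Ercc1*Δ/− mice fed 14 ppm rapamycin (Rapa 14 ppm) entered only the estimate of the spread. Each mouse gave 1 array, so p-values measure the spread between mice. The mice were chosen by their labels alone, and the comparison covers all 45141 probe sets of the array.

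ERCC1 forms with XPF a nuclease that cuts damaged DNA during nucleotide excision repair and crosslink repair, and mice with little of it age early, with marked changes in the liver. Food restriction resets several programs of the rodent liver at once. The circadian clock follows the time of feeding, through the activators BMAL1 and CLOCK and the repressors that they induce. The pattern of growth hormone release sets whether hepatocytes express male-biased or female-biased genes, and nutrient supply sets the load on lipid synthesis, fat oxidation and protein folding.

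Levels are log2 intensities of 1 probe set, and a fold change is DR 30% minus Control on that scale unless another comparison is named. Array medians ranged between 4.16 and 4.21, and replicate mice correlated pairwise at r = 0.991 to 0.996 across probe sets. The female transcript *Xist* stayed at 3.68 to 4.35 and the Y-linked *Eif2s3y* was at 9.65 to 10.24 in all 24 mice, so all were male by their RNA. *Ercc1* averaged 4.96 ± 0.21 in DR 30% and 5.37 ± 0.10 in Control, against 6.29 ± 0.18 in WT-DR and 6.68 ± 0.10 in WT-Control (SD, n = 5 each). Its fold change with restriction in the mutant was −0.41 (standard error 0.09, adjusted p = 0.00727), which stayed under the fold change required of a DEG. Hepatocyte markers were high, at a mean of 12.64 in DR 30% and 12.51 in Control over 8 genes, with 0 DEGs. Among markers of 9 other cell types, *Marco* of Kupffer cells (1.11) and *Klf1* of erythroid cells (0.64) were higher DEGs, and *Alas2* of erythroid cells (−1.15) and *Cela1* of the exocrine pancreas (−1.19) were lower DEGs. Over all genes, 1.85% were higher DEGs and 1.22% were lower. Of the 13 macrophage and Kupffer cell markers only 3 were above 0, with a median of −0.13. *Klf1* was the only 1 of 5 erythroid markers above 0 (median −0.14), and 4 of 8 exocrine pancreas markers were (median 0.03). The call of *Marco* was lost without Control 321, 326 or 327 or without DR 30% 362, 365 or 366 (adjusted p of at most 0.109), and that of *Klf1* without Control 321 or 323 or without DR 30% 365, 366 or 368 (at most 0.0939). The mean level of the 13 Kupffer cell and macrophage markers was 8.07 to 8.84 in DR 30% mice and 7.99 to 8.61 in Control mice, and its part in the results was not tested. In a whole liver, fewer cells of a type and less RNA per cell cannot be told apart.

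Restriction changed 1101 probe sets, named DEGs where the adjusted p of limma was under 0.05 over all probe sets and the fold change was at least 1.5. Of these, 673 were higher in DR 30% (1.49% of the probe sets) and 428 were lower (0.948%), and they stood for 400 and 266 named genes. At any fold change, 3962 probe sets (8.78%) had an adjusted p under 0.05. The higher DEGs had a median fold change of 0.81 and the lower DEGs of −0.82, with 218 higher and 155 lower DEGs of at least 2-fold and 34 and 16 of at least 4-fold. The mice of both groups did not overlap in 500 of the higher and 316 of the lower DEGs, while over all probe sets 3.97% were separated with DR 30% on top and 3.14% with DR 30% at the bottom. In most DEGs each restricted mouse therefore lay outside the Control range. The DEGs were chosen on these same values, which favours such separation, so it adds no separate evidence. When each gene was represented by its brightest probe set, 316 of 17097 genes were higher (1.85%) and 209 were lower (1.22%), with a median over all genes of −0.01. The counts of each gene list are read against these shares.

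**Figure D1:**
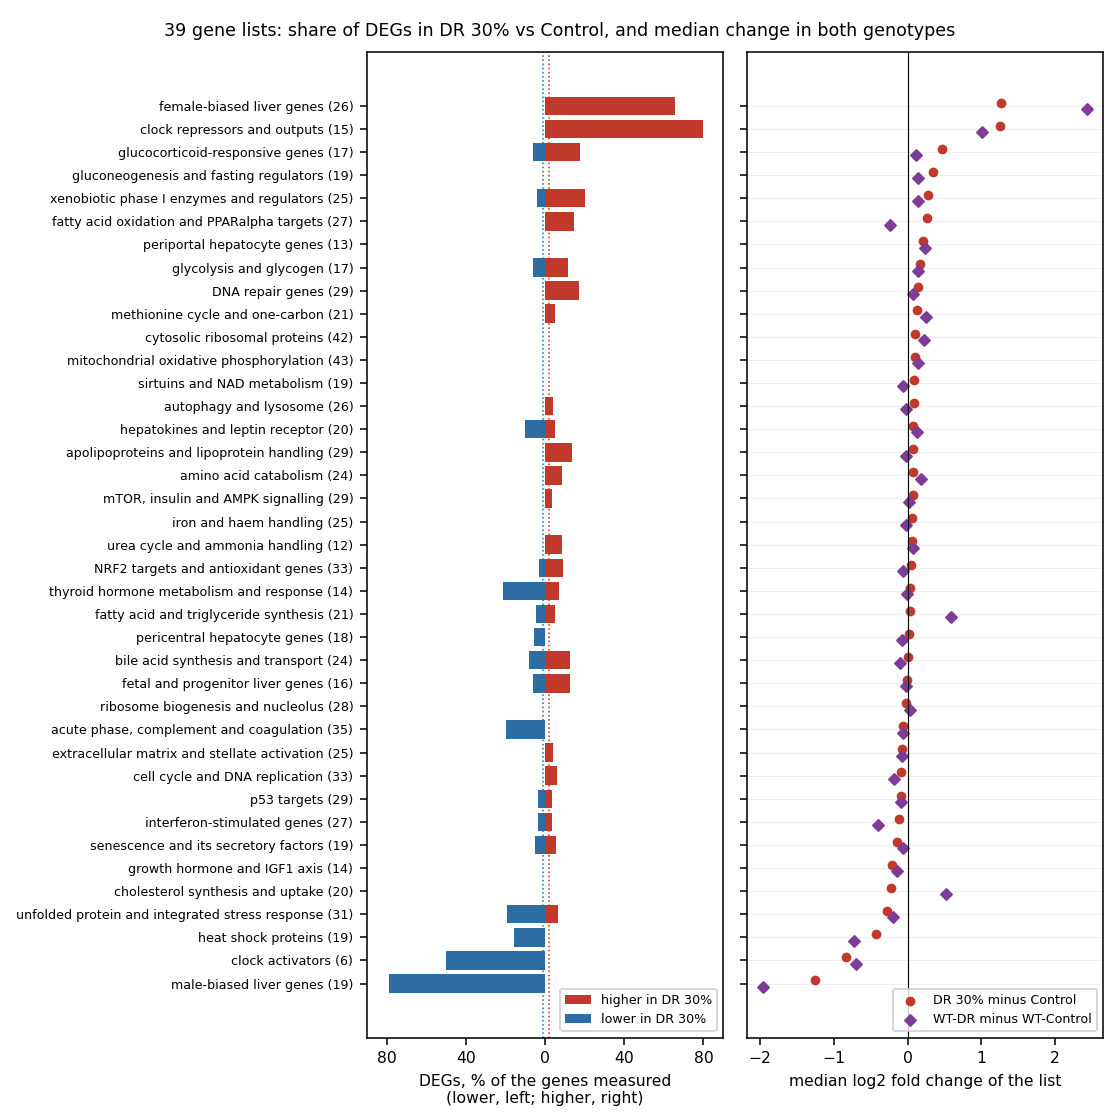
Each row is a gene list with the number of its genes measured, ordered by the median fold change. The left panel shows the share of the genes that were higher DEGs (red, to the right) or lower DEGs (blue, to the left) in DR 30% vs Control, with the shares of all genes as dotted lines, and the right panel shows the median log2 fold change of the list in DR 30% vs Control (red circles) and in WT-DR vs WT-Control (purple diamonds). Female-biased genes and clock repressors and outputs stand farthest to the right, and male-biased genes farthest to the left.

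The clock genes were shifted in DR 30% livers, with most repressors and outputs of the clock higher and its activators *Arntl* and *Npas2* lower. Of 15 repressors and outputs, 12 were higher DEGs and 0 were lower, with a median of 1.26. Of 6 activators and genes that peak with them, 0 were higher and 3 were lower, with a median of −0.84. *Usp2*, a deubiquitinase gene driven by the clock, was at 8.93, 9.86, 9.58, 9.37 and 9.89 in DR 30% mice 362, 365, 366, 368 and 369, against 3.45, 3.64, 4.17, 4.53 and 8.10 in Control mice 321, 323, 325, 326 and 327. Mice of a group are given in this order throughout. The difference was 4.75 (standard error 0.77, adjusted p = 0.000375), and Control 327 alone came near the restricted mice. The other 4 Control mice lay near the array median, where intensities of dim and absent transcripts cannot be told apart, so the difference may understate the change, and the same holds for *Ciart*, *Cux2* and *Sult3a1*. *Ciart*, which encodes a repressor of CLOCK and BMAL1, was at 7.43, 8.48, 8.00, 7.96 and 8.42 in DR 30% mice, against 4.12, 4.04, 4.14, 3.82 and 6.52 in Control mice (3.53, standard error 0.62, adjusted p = 0.000762). *Per1*, a core repressor, was at 8.84, 9.03, 8.66, 9.09 and 9.07 in DR 30% mice, against 5.34, 5.49, 6.81, 6.98 and 8.18 in Control mice (2.38, standard error 0.41, adjusted p = 0.000706). In *Per1* the restricted mice lay within a narrower range than Control mice, at 8.66 to 9.09 against 5.34 to 8.18. In *Usp2* and *Ciart* the wide range of Control came from Control 327, and the other 4 Control mice lay close together at a low level. Control 327 was the Control mouse closest to the restricted mice in all 3 genes.

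The other called genes were of smaller size, and *Noct* was the remaining one. *Per3* was higher by 2.08 (adjusted p = 0.00322), *Cry2* by 0.89 (adjusted p = 0.000227) and *Nr1d2*, which encodes the repressor REV-ERBβ, by 0.74 (adjusted p = 0.00387). The 3 output factors that bind D-boxes were higher as well, *Dbp* by 1.96 (adjusted p = 0.00568), *Tef* by 1.26 (adjusted p = 0.0101) and *Hlf* by 0.79 (adjusted p = 0.000349). *Wee1*, a cell cycle kinase gene under clock control, was higher by 1.23 (adjusted p = 0.00889). *Per2* was higher by 1.43 (adjusted p = 0.0355), but Control 321 at 7.26 and Control 327 at 8.05 lay within the range of the restricted mice. On the side of the activators, *Arntl*, which encodes BMAL1, was at 6.32, 4.81, 4.46, 5.09 and 4.08 in DR 30% mice, against 8.17, 7.96, 7.53, 7.19 and 4.99 in Control mice. It was 4.65-fold lower (−2.22, standard error 0.64, adjusted p = 0.0317), and Control 327 again lay among the restricted mice. *Npas2*, a partner of BMAL1, was lower by −1.17 (adjusted p = 0.0218) and *Nfil3*, which encodes the repressor at D-boxes, by −1.77 (adjusted p = 0.000767), while *Clock* had −0.50 (adjusted p = 0.022) and *Cry1* 0.01 (adjusted p = 0.99) and were no DEGs. Without Control 327 the median of the repressors and outputs was 1.52, and *Usp2* reached 5.58, *Per2* 1.86 and *Arntl* −2.76. The calls of *Arntl* (without Control 321, 323, 325 or 326 or DR 30% 365, 366 or 369, adjusted p of at most 0.0876), *Per2* (without Control 323, 325 or 326 or DR 30% 365, 366, 368 or 369, at most 0.109) and *Npas2* (without Control 321 or 323 or DR 30% 366, at most 0.0751) were lost, and *Npas2* had −0.52 in the values per gene, below the required fold change. The labels give no hour of death, so a shift in clock time and a change at the same clock time cannot be told apart.

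**Figure D2:**
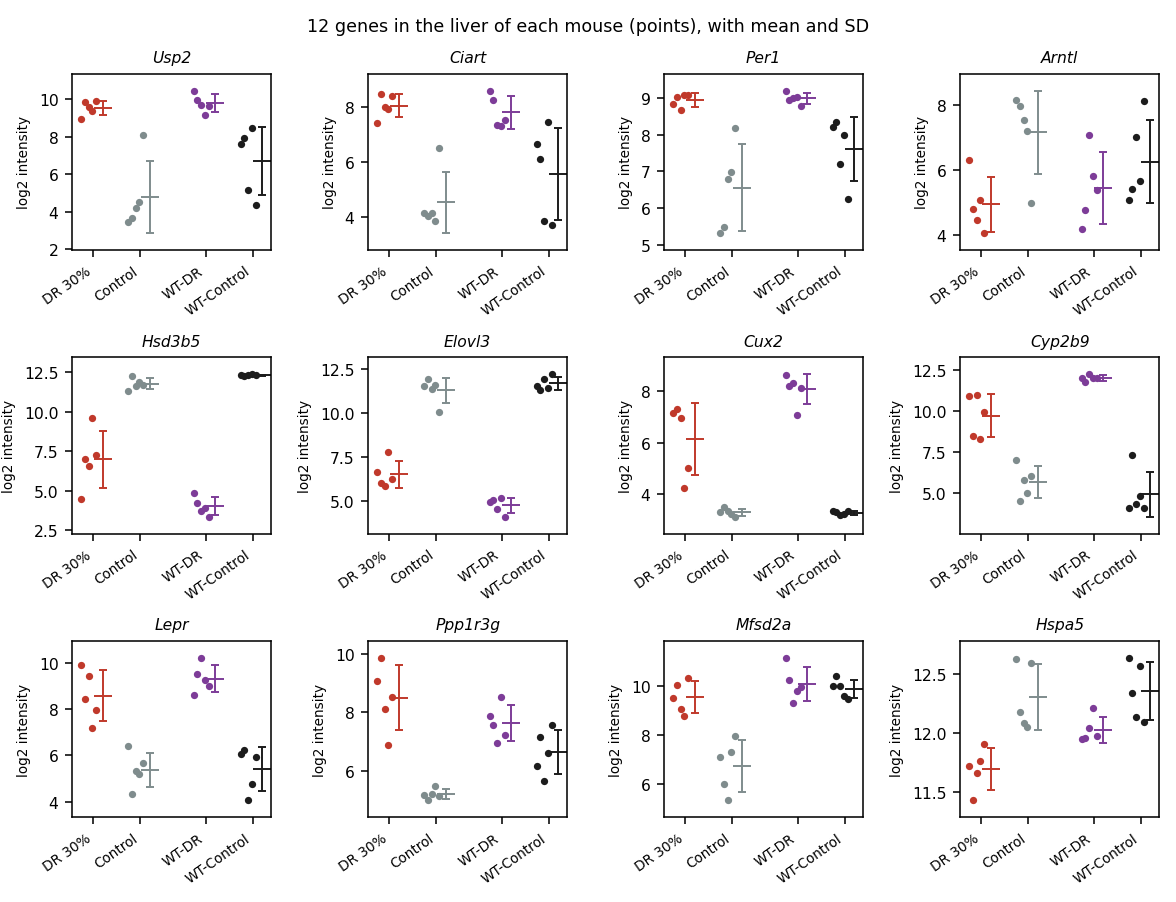
Log2 intensity of 12 genes in each mouse of DR 30%, Control, WT-DR and WT-Control (points, n = 5 each), with the mean and SD at the right of the points. In *Usp2* and *Ciart* a single Control mouse, 327, stands far above the other 4, and in *Hsd3b5* a single restricted mouse, 368, stands above the other 4.

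Promoters of clock genes are shown because BMAL1 with CLOCK binds the E-box CACGTG, and DBP, TEF, HLF and NFIL3 bind the D-box, here TTATGTAA or TTACGTAA. The RefSeq promoters of GRCm38.p6, from 250 bases before to 50 bases after the start of a gene, were searched on both strands. The E-box reads the same on both strands and shares no position with a D-box, while CACGTT, a variant searched as well, can run into a D-box at its last letters. *Ciart* on chr3:95882179-95882478 (minus strand) held E-boxes at 116, 58 and 44 bases before its start, and *Per1* on chr11:69098699-69098998 (plus strand) held 1 at 166 bases. *Per3* on chr4:151044616-151044915 (minus strand) held D-boxes at 205 and 158 bases and no E-box. Capitals mark the motifs.
Ciart: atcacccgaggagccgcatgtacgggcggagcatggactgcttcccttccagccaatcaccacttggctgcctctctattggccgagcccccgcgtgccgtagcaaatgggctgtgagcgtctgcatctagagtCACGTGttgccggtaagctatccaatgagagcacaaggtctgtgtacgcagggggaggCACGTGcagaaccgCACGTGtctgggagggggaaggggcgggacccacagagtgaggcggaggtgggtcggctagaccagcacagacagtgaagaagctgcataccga
Per1: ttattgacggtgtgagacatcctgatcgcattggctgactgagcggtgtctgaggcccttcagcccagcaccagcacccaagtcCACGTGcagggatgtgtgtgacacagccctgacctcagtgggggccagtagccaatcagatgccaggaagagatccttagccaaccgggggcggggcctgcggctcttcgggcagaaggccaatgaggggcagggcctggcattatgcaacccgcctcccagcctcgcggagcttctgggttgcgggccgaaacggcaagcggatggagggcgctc
Per3: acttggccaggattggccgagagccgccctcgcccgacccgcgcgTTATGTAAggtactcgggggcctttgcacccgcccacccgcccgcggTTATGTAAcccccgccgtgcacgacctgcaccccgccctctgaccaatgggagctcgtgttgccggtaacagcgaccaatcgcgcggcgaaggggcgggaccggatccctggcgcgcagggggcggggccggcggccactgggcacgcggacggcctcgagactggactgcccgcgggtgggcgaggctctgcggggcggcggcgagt
An E-box occurred in the promoters of 4 of the 12 repressors and outputs that had one in the table, against 7.24% of all 27025 genes. Of the 6 activators and genes that peak with them, 1 held an E-box, *Cry1*. Among the DEGs of these lists with a promoter, 3 of 10 and 0 of 3 held it. CACGTT occurred in 1 of the 12, against 4.76% of all genes, and a D-box in 1 of the 12 and 0 of the 6, against 1.07%. These counts describe letters in a short window and not binding.

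Of all gene lists, the sex-biased ones held the most DEGs by number, and the clock repressors and outputs the largest share, 12 of 15. The lists were chosen with earlier results of these data known, so their order is a description. Of 19 male-biased genes measured, 15 were lower DEGs in DR 30% and 0 were higher, with a median of −1.26, and of 26 female-biased genes 17 were higher DEGs and 0 were lower, with a median of 1.27. *Hsd3b5*, a steroid dehydrogenase gene of male liver, was at 4.47, 7.03, 6.59, 9.61 and 7.24 in DR 30% mice, against 11.34, 12.27, 11.63, 11.91 and 11.69 in Control mice. It was 27.5-fold lower (−4.78, standard error 0.53, adjusted p = 4.15e-06), with no overlap between the groups but a range of several log2 units among the restricted mice. *Elovl3*, an elongase gene for very long fatty acids, was at 6.66, 5.99, 5.85, 7.79 and 6.22 in DR 30% mice, against 11.54, 11.91, 11.36, 11.58 and 10.06 in Control mice, a 27.6-fold decrease (−4.79, standard error 0.36, adjusted p = 3.3e-08). The serpin pseudogene *Serpina4-ps1* was lower by −5.01 (adjusted p = 7.53e-07), the arachidonic acid hydroxylase gene *Cyp4a12a* by −4.15 (adjusted p = 2.46e-07), the oxysterol hydroxylase gene *Cyp7b1* by −1.74 (adjusted p = 5.56e-05) and the transporter gene *Slco1a1* by −1.26 (adjusted p = 1.69e-05). Outside the list, the organic anion transporter gene *Slc22a7* was lower by −2.11 (adjusted p = 1.66e-05). In each of these genes the mice of both groups did not overlap.

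On the female-biased side, *Cux2*, which encodes a repressor of male-biased genes, was at 7.16, 7.29, 6.95, 4.23 and 5.03 in DR 30% mice, against 3.31, 3.48, 3.34, 3.21 and 3.12 in Control mice (2.84, standard error 0.40, adjusted p = 9.97e-05). *Cyp2b9*, a cytochrome P450 gene of female liver, was at 10.91, 8.44, 10.98, 8.28 and 9.92 in DR 30% mice, against 7.00, 4.49, 5.78, 4.97 and 6.01 in Control mice, 16.7-fold higher (4.06, standard error 0.58, adjusted p = 0.000101). All restricted mice had left the Control range in both genes, DR 30% 368 by the least. The list also held *Acot3*, a peroxisomal thioesterase gene (4.52, adjusted p = 4.12e-08), *Nipal1*, a magnesium transporter gene (3.32, adjusted p = 7.01e-06), the sulfotransferase gene *Sult3a1* (3.18, adjusted p = 0.000497), the monooxygenase gene *Fmo2* (3.17, adjusted p = 1.18e-07), the peroxisomal fatty acid transporter gene *Abcd2* (2.86, adjusted p = 6.44e-06) and *Trim24* (1.89, adjusted p = 1.18e-07), a transcriptional cofactor gene. *Sult1e1*, which inactivates oestrogens, and *Cyp17a1*, a steroid hydroxylase gene, were higher by 1.76 (adjusted p = 0.03) and 1.69 (adjusted p = 0.0303), with overlapping mice. Both calls were lost without DR 30% 362 or 365 or Control 323, for *Sult1e1* also without DR 30% 366 or Control 327 and for *Cyp17a1* also without Control 325 or 326, with an adjusted p of at most 0.103 and 0.0985. *Cyp2b13* (0.69, adjusted p = 0.374) and *Slc22a26* (0.60, adjusted p = 0.34) were not called.

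Per mouse, the mean level of the 19 male-biased genes was 8.51, 9.08, 8.90, 9.60 and 8.92 in DR 30%, against 10.54, 11.20, 10.92, 11.10 and 10.70 in Control. That of the 26 female-biased genes was 8.14, 7.60, 7.96, 6.90 and 7.42 in DR 30%, against 6.22, 5.67, 5.95, 5.94 and 6.13 in Control. DR 30% 362 was the most shifted of the restricted mice in both lists and DR 30% 368 the least, and neither list overlapped between the groups. The genes of the growth hormone axis itself showed 0 DEGs of 14, with a median of −0.21. *Ghr*, the growth hormone receptor gene, had −0.49 (adjusted p = 0.000166) with no overlap between the groups, *Igf1* had −0.18 (adjusted p = 0.0541), and the signal transducer gene *Stat5b* had −0.24 (adjusted p = 0.297). *Bcl6*, a repressor gene induced by pulses of growth hormone, had −1.42 (adjusted p = 0.206), and *Socs2*, a feedback inhibitor gene, had 0.97 (adjusted p = 0.365), with Control mice spread between 7.22 and 11.04.

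**Figure D3:**
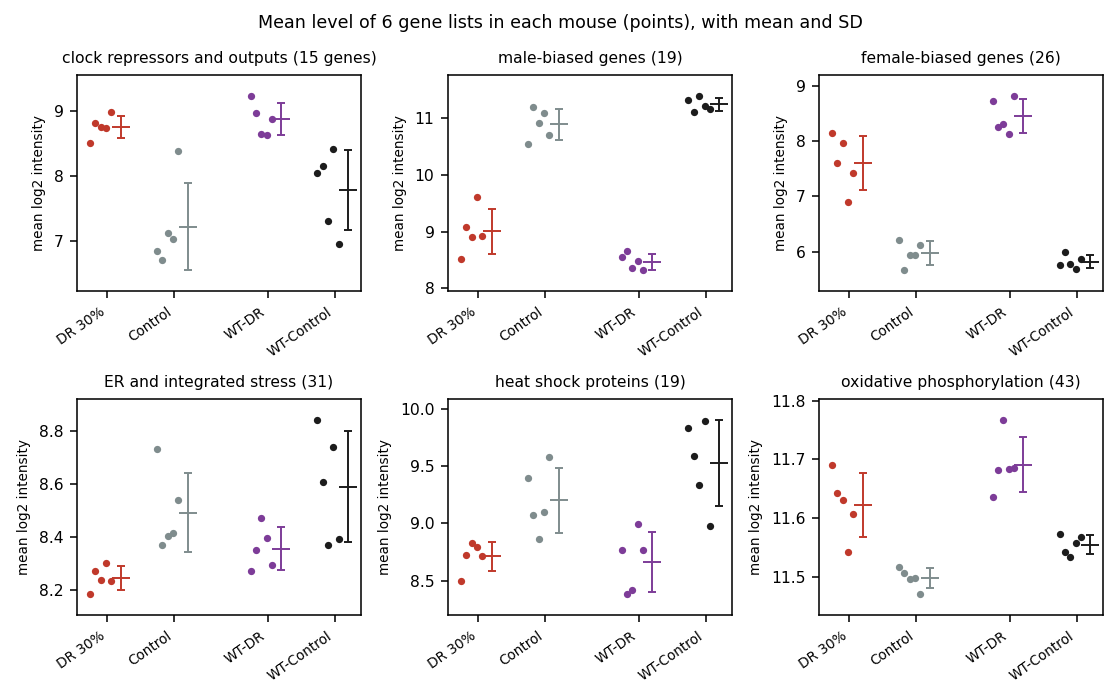
Mean log2 intensity of the genes of 6 lists in each mouse of DR 30%, Control, WT-DR and WT-Control (points, n = 5 each), with mean and SD. Male-biased and female-biased genes separate restricted from unrestricted mice in both genotypes, and the mean of 43 oxidative phosphorylation genes, at 11.62 in DR 30% and 11.50 in Control, shifts by a small amount.

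Genes of fat oxidation were higher in part. Of 27 genes of fatty acid oxidation and PPARα targets, 4 were higher DEGs and 0 were lower, with a median of 0.27. They were *Cyp4a10*, an ω-hydroxylase gene (1.57, adjusted p = 0.0159), the acyl-CoA thioesterase genes *Acot1* (1.41, adjusted p = 0.00438) and *Acot2* (1.21, adjusted p = 0.00658), and *Ehhadh* of peroxisomal β-oxidation (0.71, adjusted p = 0.00182). *Cyp4a10* lost its call without Control 323 (adjusted p = 0.0588) and *Ehhadh* fell below the required fold change without DR 30% 362 (0.58). *Cpt1a*, the gate of fatty acid entry into mitochondria, had 0.39 (adjusted p = 0.0746), and the fasting hormone gene *Fgf21* had −0.47 (adjusted p = 0.498). Among 29 genes of lipoproteins and lipid droplets, 4 were higher DEGs and 0 were lower, with a median of 0.08. *Mfsd2a*, a carrier gene of lysophospholipids with long-chain fatty acids, was at 9.51, 10.05, 9.07, 8.76 and 10.32 in DR 30% mice, against 7.12, 6.02, 5.35, 7.30 and 7.95 in Control mice (2.79, standard error 0.41, adjusted p = 0.00014), with no overlap. The other 3 were the lipoprotein receptor gene *Vldlr* (1.001, adjusted p = 0.0202), *Pparg*, a regulator of lipid storage (0.83, adjusted p = 0.00841), and the fatty acid transporter gene *Cd36* (0.79, adjusted p = 0.0156). *Vldlr* lost its call without Control 323 or DR 30% 362 or 366 (adjusted p of at most 0.0659), and had 0.35 in the values per gene (adjusted p = 0.268).

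Lipid synthesis genes moved little as a group. Of 21 genes of fatty acid and triglyceride synthesis, 1 was higher and 1 was lower, with a median of 0.03. *Lpin1*, which makes diacylglycerol and also serves as a coactivator, was higher by 1.498 (adjusted p = 0.0391), a call lost without Control 321, 323, 325 or 326 or DR 30% 365, 366 or 369 (adjusted p of at most 0.117). *Mlxipl*, which encodes the glucose sensor ChREBP, was lower by −0.71 (adjusted p = 0.000741) with no overlap. *Fasn*, the fatty acid synthase gene, was at 11.77, 10.27, 9.39, 9.96 and 10.77 in DR 30% mice, against 12.58, 11.33, 10.05, 9.59 and 10.45 in Control mice (−0.37, standard error 0.47, adjusted p = 0.72), and both groups covered almost the same range. The 20 genes of cholesterol synthesis and uptake held 0 DEGs, with a median of −0.23. Of 24 genes of bile acid synthesis and transport, 3 were higher and 2 were lower, with a median of 0.00. The transporter gene *Slco1a4* was higher by 1.99 (adjusted p = 7.35e-06) and the FGF co-receptor gene *Klb* by 0.65 (adjusted p = 0.000512, and 0.58 without Control 323, below the required fold change). The third higher gene, the bile acid exporter subunit gene *Slc51b*, was named after its value had been seen, and the lower genes were *Cyp7b1* and *Slco1a1*. *Cyp7a1*, the rate-limiting enzyme gene of bile acid synthesis, had 1.07 (adjusted p = 0.148).

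Glycogen genes changed in both directions. *Ppp1r3g*, a subunit gene that directs phosphatase 1 to glycogen after feeding, was at 9.07, 9.84, 8.11, 6.89 and 8.54 in DR 30% mice, against 5.19, 5.00, 5.22, 5.50 and 5.15 in Control mice. It was 9.69-fold higher (3.28, standard error 0.46, adjusted p = 7.97e-05), in each restricted mouse, with DR 30% 368 the lowest. *Gys2*, the liver glycogen synthase gene, was higher by 0.81 (adjusted p = 0.00133), and *Ppp1r3c*, another subunit gene of the phosphatase, was lower by −0.94 (adjusted p = 0.0475). The call of *Ppp1r3c* was lost without Control 321, 323 or 325 or DR 30% 362, 365 or 366 (adjusted p of at most 0.131). In all, 2 of 17 genes of glycolysis and glycogen were higher and 1 was lower. Of 19 gluconeogenesis genes and regulators 0 were DEGs, with a median of 0.34 and 16 above 0. Among them, *Pck1*, the rate-limiting enzyme gene of gluconeogenesis, had 0.21 (adjusted p = 0.424) by its probe set but 1.35 (adjusted p = 0.00119) in the values per gene, where it was a DEG, and *Igfbp1* had 0.51 (adjusted p = 0.362). Of 17 genes known to respond to glucocorticoids, 3 were higher, namely *Per1*, the metallothionein gene *Mt1* (2.35, adjusted p = 0.00317) and the immunophilin gene *Fkbp5* (1.51, adjusted p = 0.00452), and 1 was lower, *Cdkn1a*. In amino acid metabolism, 2 of 24 catabolic genes were higher, *Prodh* of proline breakdown (0.60, adjusted p = 0.00848) and *Asl* of the urea cycle (0.64, adjusted p = 0.000667), and 0 were lower. *Prodh* fell below the required fold change without Control 323 or 326 or DR 30% 362 or 369 (0.53 at the lowest). Of 21 genes of the methionine cycle and one-carbon metabolism, only the mitochondrial folate enzyme gene *Mthfd1l* was a DEG (1.01, adjusted p = 4.28e-05).

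Drug metabolism genes were higher in part. Of 25 phase I enzymes and regulators, 5 were higher and 1 was lower, with a median of 0.28. *Nr1i3*, which encodes the xenobiotic receptor CAR, was at 9.68, 9.66, 9.90, 9.60 and 9.75 in DR 30% mice, against 8.60, 8.14, 9.16, 8.86 and 8.80 in Control mice (1.01, standard error 0.15, adjusted p = 0.000177), with no overlap. The higher enzyme genes were *Cyp2b9*, *Cyp2c37* (1.49, adjusted p = 0.00158), *Cyp2a5* (1.16, adjusted p = 0.015) and *Cyp2c29* (0.65, adjusted p = 0.024), and *Cyp1a2* was lower by −0.97 (adjusted p = 0.0272). The calls of *Cyp2a5* (without Control 323, adjusted p = 0.0573), *Cyp2c29* (without Control 323 or 326 or DR 30% 365, at most 0.0861) and *Cyp1a2* (without Control 325 or 326 or DR 30% 362, at most 0.0677) were lost. *Cyp1a2* lost its call also when only these groups were fitted (adjusted p = 0.105). Outside this list, *Cyp2c39*, a P450 gene that oxidises retinoic acid, was 8.80-fold higher (3.14, standard error 0.29, adjusted p = 3.19e-07). The drug efflux pump gene *Abcb1a* was higher by 2.49 (adjusted p = 3.24e-05). Near-identical family members of *Cyp2b*, *Cyp2c*, *Cyp3a*, *Cyp4a*, *Acot*, *Hsd3b* and *Saa* may share probes, so changes within these families are not certain to belong to 1 gene. Of 33 antioxidant genes and NRF2 targets, 3 were higher and 1 was lower, with a median of 0.05. *Nqo1*, a quinone reductase gene, was at 7.94, 8.22, 8.07, 8.09 and 8.22 in DR 30% mice, against 7.49, 6.38, 6.80, 6.65 and 7.24 in Control mice (1.20, standard error 0.15, adjusted p = 1.87e-05). The glutathione transferase genes *Mgst3* (1.13, adjusted p = 9.41e-05) and *Gsta2* (0.70, adjusted p = 0.0309) were higher and *Osgin1*, a gene induced by oxidative stress, was lower (−1.37, adjusted p = 0.00579). *Gsta2* lost its call without Control 323 or 325 or DR 30% 365, 368 or 369 (adjusted p of at most 0.106).

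Some genes of protein folding in the endoplasmic reticulum (ER) were lower in DR 30% livers, and most genes of their list were not called. Of 31 genes of the unfolded protein response and the integrated stress response, 6 were lower DEGs and 2 were higher, with a median of −0.28. *Hspa5*, the central ER chaperone BiP, was at 11.72, 11.43, 11.66, 11.76 and 11.91 in DR 30% mice, against 12.62, 12.17, 12.08, 12.05 and 12.59 in Control mice (−0.61, standard error 0.13, adjusted p = 0.00414). The groups did not overlap. The fold change lay close to the limit of 1.5 and fell below it without Control 321 or 327 or DR 30% 365 (−0.53 at the weakest). The neurotrophic ER factor gene *Manf* was lower by −1.05 (adjusted p = 0.00507), the co-chaperone genes *Hyou1* and *Dnajb11* by −0.94 (adjusted p = 0.000591) and −0.73 (adjusted p = 0.00196), and the disulfide isomerase genes *Pdia6* and *Pdia3* by −0.69 (adjusted p = 0.000846) and −0.65 (adjusted p = 0.000837). The call of *Pdia3*, a dim probe set at 4.12 in DR 30% and 4.76 in Control, fell below the required fold change without Control 321 (−0.56) or DR 30% 362 (−0.53), and in the values per gene (−0.42).

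The 2 higher genes of the list were *Trib3*, a pseudokinase gene of the integrated stress response (1.29, adjusted p = 0.00397), and *Vldlr*. *Xbp1*, a transcription factor gene of the unfolded protein response, had −0.30 (adjusted p = 0.0474). Of 19 heat shock protein genes, 3 were lower and 0 were higher, with a median of −0.43. *Hsp90aa1*, the inducible cytosolic HSP90 gene, was at 8.69, 8.94, 8.80, 8.73 and 8.77 in DR 30% mice, against 10.75, 9.71, 9.32, 9.69 and 10.63 in Control mice (−1.24, standard error 0.25, adjusted p = 0.0027). The restricted mice differed by little among themselves, and Control 321 and 327 were the highest Control mice, as they were in *Hspa5* and *Manf*. *Hspa13* was lower by −0.78 (adjusted p = 0.00144) and the co-chaperone gene *Stip1* by −0.66 (adjusted p = 0.0266), a call lost without Control 321 or 327 or DR 30% 362, 365 or 369 (adjusted p of at most 0.0863). The heat-inducible *Hspa1b* had −1.79 (adjusted p = 0.122), and an adjusted p of 0.00468 when only these groups were fitted.

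Promoters of *Hspa5* and *Pdia6* are shown because ATF6, with NF-Y, acts at the ER stress response element, CCAAT and CCACG with 9 bases between them. *Hspa5* on chr2:34771840-34772139 (plus strand) held it at 65 bases before the start, and *Pdia6* on chr12:17266339-17266638 (plus strand) at 98 bases, in capitals.
Hspa5: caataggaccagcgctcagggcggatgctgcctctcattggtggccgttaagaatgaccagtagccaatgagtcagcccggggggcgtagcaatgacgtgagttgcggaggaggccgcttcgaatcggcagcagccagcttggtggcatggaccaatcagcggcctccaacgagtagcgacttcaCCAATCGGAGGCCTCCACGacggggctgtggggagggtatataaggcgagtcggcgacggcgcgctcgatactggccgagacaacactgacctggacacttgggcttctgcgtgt
Pdia6: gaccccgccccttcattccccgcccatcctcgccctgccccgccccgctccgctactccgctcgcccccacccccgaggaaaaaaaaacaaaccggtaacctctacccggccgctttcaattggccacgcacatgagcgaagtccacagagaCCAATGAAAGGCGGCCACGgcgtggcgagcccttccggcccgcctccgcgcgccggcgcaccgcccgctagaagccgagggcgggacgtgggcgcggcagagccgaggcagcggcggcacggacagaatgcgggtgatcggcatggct
The element, searched on both strands, may run into an E-box at its last letters. It occurred in 8 of the 29 genes of the list with a promoter in the table, against 0.13% of all 27025 genes. The 6 DEGs among these 29 were the lower *Hspa5*, *Pdia6*, *Dnajb11* and *Pdia3* and the higher *Trib3* and *Vldlr*. Of these only *Hspa5* and *Pdia6* held the element, and the other genes that held it were not DEGs. The lower genes *Manf* and *Hyou1* had no promoter in the table.

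Among the secreted products of the liver, some complement and serum amyloid genes were lower. Of 35 genes of the acute phase, complement and coagulation, 7 were lower and 0 were higher, with a median of −0.06. *C6*, a component of the membrane attack complex, was at 8.49, 9.25, 8.99, 10.03 and 8.79 in DR 30% mice, against 10.40, 11.37, 11.27, 11.45 and 10.74 in Control mice (−1.93, standard error 0.28, adjusted p = 0.000121). The complement genes *C8a* (−1.58, adjusted p = 5.04e-05), *C8b* (−1.56, adjusted p = 9.77e-06) and *C9* (−0.93, adjusted p = 0.000108) were lower as well, each with no overlap. *C6* and *C8a* are also in the list of male-biased genes. The serum amyloid genes *Saa1* (−1.44, adjusted p = 0.0215), *Saa3* (−1.16, adjusted p = 0.000109) and *Saa4* were lower, with *Saa1* losing its call without Control 323 or 326 or DR 30% 362 (adjusted p of at most 0.0729). Among 20 hepatokine genes, *Lepr* was higher, while *Enho*, the adropin gene, and *Inhbc*, an activin subunit gene, were lower by −1.14 (adjusted p = 0.00132) and −1.12 (adjusted p = 8.31e-06). *Lepr*, the leptin receptor gene, was at 9.90, 8.43, 9.44, 7.19 and 7.99 in DR 30% mice, against 6.39, 4.34, 5.33, 5.19 and 5.65 in Control mice, 9.23-fold higher (3.21, standard error 0.53, adjusted p = 0.000435), with no overlap. The adipokine gene *Serpina12*, of the male-biased list, was lower by −2.08 (adjusted p = 8.55e-05). Of 14 genes of thyroid hormone metabolism and response, 1 was higher and 3 were lower. *Dio1*, the deiodinase gene that activates thyroxine, fell by 1.25 (adjusted p = 0.00365), the coactivator gene *Bcl3* by 0.99 (adjusted p = 0.00167) and the transporter gene *Slco1c1* by 0.74 (adjusted p = 0.00344), and the transporter gene *Slc16a10* was higher by 0.83 (adjusted p = 0.00574), but had 0.20 in the values per gene.

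DNA repair genes were mostly not called, and those called were higher. Of 29 repair genes, 5 were higher and 0 were lower, with a median of 0.14. An unadjusted limma p under 0.05 was found in 15 of the 29, against 4366 of all 17097 genes. The mean level of the 29 genes was 6.35 to 6.45 in DR 30% mice and 6.17 to 6.26 in Control mice, without overlap. This was not particular to repair genes. The means of several other lists, among them glycolysis and glycogen and the methionine cycle, did not overlap either, and those of others did. *Xpa*, the scaffold gene of nucleotide excision repair, was at 8.00, 8.18, 8.30, 7.89 and 8.18 in DR 30% mice, against 7.29, 7.59, 7.57, 7.73 and 7.21 in Control mice (0.63, standard error 0.12, adjusted p = 0.00188). The groups did not overlap, and the value fell just below the required fold change without Control 327 or DR 30% 366 (0.56 at the lowest). The crosslink repair gene *Fancc* (0.91, adjusted p = 1e-05), the homologous recombination genes *Brca1* (1.17, adjusted p = 0.000163) and *Brca2* (0.70, adjusted p = 0.0121), and the ligase gene *Lig1* (0.67, adjusted p = 0.0068, and 0.57 without DR 30% 362) were the other 4. In the values per gene of the same arrays *Brca1* had 0.44 and *Fancc* 0.28, both below the required fold change. Of 29 p53 targets, 1 was higher and 1 was lower, with a median of −0.09. *Cdkn1a*, which encodes the cell cycle inhibitor p21, was at 6.11, 6.90, 6.52, 6.91 and 6.35 in DR 30% mice, against 7.47, 8.15, 7.61, 8.37 and 6.90 in Control mice, 2.21-fold lower (−1.14, standard error 0.30, adjusted p = 0.0154). Its mice overlapped by a small margin at Control 327, and its call was lost without Control 323 or 326 (adjusted p of at most 0.0505). *Ddit4*, a stress-induced inhibitor gene of mTORC1, was higher by 1.74 (adjusted p = 0.00819), with overlap, since DR 30% 368 at 7.04 stood below Control 323 at 7.32, and its adjusted p was 0.0547 when only these groups were fitted. Of 33 cell cycle genes, *Ccne2* (0.88, adjusted p = 0.0186) and *Tk1* (0.75, adjusted p = 0.0214) were higher and 0 were lower. The call of *Ccne2* was lost without Control 325 or DR 30% 366 or 369 (adjusted p of at most 0.0571) and that of *Tk1* without Control 321 or DR 30% 362, 365 or 366 (at most 0.073). *Ccne2* lost it also when only these groups were fitted (adjusted p = 0.072). Other inhibitor genes of the cell cycle were higher, *Cdkn1c* by 1.24 (adjusted p = 2.03e-05) and *Cdkn2c* by 0.86 (adjusted p = 0.00237). Named genes among the higher DEGs had a median length of 29.0 kb (398 genes) and those among the lower DEGs of 22.8 kb (266 genes), against 20.2 kb over all 16937 genes with a length. Among genes with a mean above the median of the array the medians were 28.9 kb, 22.8 kb and 22.7 kb for all genes.

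Several programs showed few or no DEGs. The 42 cytosolic ribosomal protein genes had 0 DEGs, with a median of 0.11 and 40 above 0, and the 43 oxidative phosphorylation genes had 0 DEGs, with a median of 0.10 and 39 above 0. The mean level of these 43 genes was 11.54 to 11.69 in DR 30% mice and 11.47 to 11.52 in Control mice, without overlap, as in several other lists. In ribosome biogenesis (28 genes), sirtuins and NAD metabolism (19 genes), iron and haem handling (25 genes) and periportal genes (13 genes), 0 genes were DEGs. An unadjusted limma p under 0.05 was found in 4366 of all 17097 genes. The share was larger in periportal genes (8 of 13), gluconeogenesis (11 of 19) and growth hormone signalling (7 of 14). It was also larger in sirtuins and NAD metabolism (9 of 19), oxidative phosphorylation (19 of 43) and, by less, ribosomal proteins (13 of 42). A smaller share was found in ribosome biogenesis (3 of 28), cholesterol (2 of 20) and iron and haem handling (2 of 25). Among 29 genes of mTOR, insulin and AMPK signalling, *Ddit4* alone was a DEG, and among 26 genes of autophagy and lysosomes only the mitophagy receptor gene *Bnip3* was (0.70, adjusted p = 0.000718). Of 27 interferon-stimulated genes, *Stat2* was lower (−0.68, adjusted p = 8.55e-05, and −0.55 in the values per gene, below the required fold change) and *Gbp3* was higher (0.61, adjusted p = 0.047), and the call of *Gbp3* was lost without Control 321, 325 or 326 or DR 30% 365, 366, 368 or 369 (adjusted p of at most 0.143). Of 25 genes of the extracellular matrix and stellate cell activation, *Mmp14*, a membrane-bound matrix protease gene, was higher (0.71, adjusted p = 0.00435) and 0 were lower.

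Some of the changes with the smallest adjusted p lay outside these lists. After *Elovl3*, the lower genes were *Cmah*, which encodes the hydroxylase of sialic acid (−1.46, adjusted p = 3.84e-08), the phosphate transporter gene *Slc17a3* (−1.53, adjusted p = 3.88e-08) and, from the male-biased list, *Nudt7*, a peroxisomal CoA hydrolase gene (−1.19, adjusted p = 1.18e-07). The higher genes were *Acot3*, *Trim24* and *Fmo2* of the female-biased list and, outside the lists, *Cbr1*, a carbonyl reductase gene (1.11, adjusted p = 1.18e-07), and *Txn2*, the mitochondrial thioredoxin gene (0.94, adjusted p = 1.62e-07, and 0.42 in the values per gene, below the required fold change). *Cbr1* was at 10.99, 10.96, 10.67, 10.54 and 10.79 in DR 30% mice, against 9.82, 9.49, 9.69, 9.67 and 9.73 in Control mice, with little spread in either group. A probe set of *Ptbp1*, a splicing regulator gene, was lower by −2.19 (adjusted p = 1.46e-07), but in the values per gene of the same arrays *Ptbp1* had 0.18, so its direction differed between the tables.

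WT littermates show how far the response was shared. In WT-DR vs WT-Control, 1538 probe sets were higher (3.41%) and 1187 were lower (2.63%), and by the brightest probe set of each gene 488 were higher (2.85%) and 601 were lower (3.52%). These comparisons share no mice. Of the higher DEGs of the mutant, 396 (58.8%) were DEGs of the same direction in WT and 2 of the opposite direction, and of the lower DEGs 295 (68.9%) and 2. Set against the longer lists of WT, the shared DEGs were 25.7% of the higher and 24.9% of the lower DEGs. Of the mutant DEGs that were higher, 94.2% had the same sign in WT, and of the lower ones 96.7%. The share of all probe sets with the same sign was not determined, so these shares have no reference. The higher DEGs of the mutant had a median fold change of 0.81 in the mutant, against 0.74 in WT, and the lower DEGs of −0.82, against −0.89. The higher DEGs of WT had a median fold change of 0.38 in the mutant, against 0.80 in WT, and the lower DEGs of −0.40, against −0.82, and in each case the DEGs had been chosen in 1 of the genotypes, which makes them large there. Over all probe sets the fold changes of both genotypes correlated at r = 0.668, as a description across probe sets, which are no independent replicates. Among the clock genes the medians were 1.26 in the mutant and 1.003 in WT for repressors and outputs, and among male-biased and female-biased genes −1.26 and 1.27 in the mutant, against −1.96 and 2.43 in WT.

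**Figure D4:**
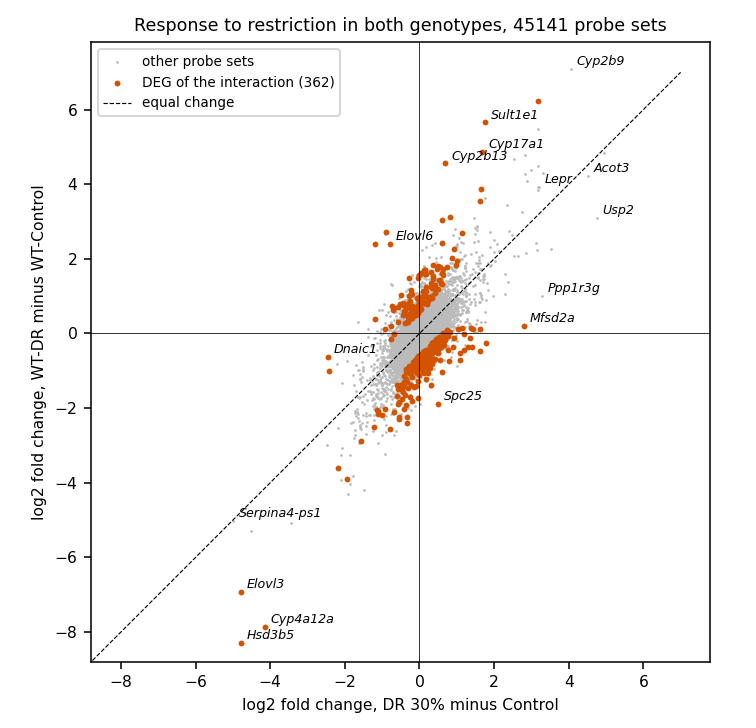
Log2 fold change in DR 30% vs Control (x axis) against WT-DR vs WT-Control (y axis) for 45141 probe sets, with the 362 DEGs of the interaction in orange and equal change as the dashed line. *Hsd3b5*, *Cyp4a12a*, *Cyp2b13* and *Sult1e1* lie farther from 0 in WT than in the mutant, and *Mfsd2a* farther from 0 in the mutant.

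The difference between the genotypes was tested as an interaction, the fold change in the mutant minus that in WT. It called 362 probe sets, 224 positive (0.496%) and 138 negative (0.306%). In 153 of them both genotypes moved in the same direction and the mutant by less, in 14 the mutant moved by more, and in 195 the signs were opposite, with 4 called in both genotypes in opposite directions. The number depended on single mice, with 427 positive and 325 negative probe sets without WT-DR 421, and 100 and 57 without WT-DR 423. Of the 19 male-biased genes 5 had a positive interaction and of the 26 female-biased genes 4 a negative one, so each of these 9 responses was smaller in the mutant. *Hsd3b5* averaged 6.99 ± 1.83 in DR 30% and 11.77 ± 0.34 in Control, against 4.02 ± 0.56 in WT-DR and 12.33 ± 0.03 in WT-Control (SD, n = 5 each). Its interaction in limma was 3.52 (standard error 0.75, adjusted p = 0.0234). *Sult1e1* averaged 9.48 ± 1.04 in DR 30% and 7.72 ± 1.01 in Control, against 10.06 ± 1.05 in WT-DR and 4.41 ± 0.12 in WT-Control, with an interaction of −3.90 (standard error 0.72, adjusted p = 0.0107). The restricted groups were close to each other and the unrestricted groups were not. *Cyp2b13* averaged 4.10 ± 0.87 in DR 30% and 3.40 ± 0.13 in Control, against 8.07 ± 1.36 in WT-DR and 3.51 ± 0.07 in WT-Control, and here the restricted groups were far apart (−3.86, standard error 0.61, adjusted p = 0.00382). WT-DR in *Hsd3b5*, WT-Control in *Sult1e1* and both unrestricted groups in *Cyp2b13* lay near or below the array median, so these changes may be understated. *Cyp4a12a* (3.72, adjusted p = 0.00144), *Elovl3* (2.13, adjusted p = 0.0413), *C6* (1.98, adjusted p = 0.0183), *C8a* (1.30, adjusted p = 0.0361), *C9* (1.08, adjusted p = 0.00818), *Cyp17a1* (−3.17, adjusted p = 0.0266) and *Slc22a26* (−2.43, adjusted p = 0.0199) were also called, and *Cyp2b9* (−3.02, adjusted p = 0.0749), *Cux2* (−1.94, adjusted p = 0.104) and *Lepr* (−0.71, adjusted p = 0.741) were not.

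Lipid genes held interactions of both kinds. Of the 27 genes of fatty acid oxidation 6 had a positive interaction and 0 a negative one. In some of the 6, WT fell and the mutant changed little, as in a gene with −0.02 in the mutant and −1.12 in WT. In the others, *Acot1* among them, the value was positive in the mutant and negative in WT. *Acot1* averaged 7.45 ± 0.55 in DR 30% and 6.04 ± 0.41 in Control, against 7.50 ± 0.37 in WT-DR and 7.85 ± 0.49 in WT-Control (interaction 1.76, standard error 0.43, adjusted p = 0.046). *Mfsd2a* averaged 9.54 ± 0.65 in DR 30% and 6.75 ± 1.05 in Control, against 10.07 ± 0.68 in WT-DR and 9.88 ± 0.37 in WT-Control (2.60, standard error 0.58, adjusted p = 0.031). In both genes the Control mice were the low group, and the restricted mutants stood near WT mice. *Fitm1*, a lipid droplet gene, averaged 7.93 ± 0.15 in DR 30% and 8.27 ± 0.29 in Control, against 6.18 ± 0.38 in WT-DR and 8.42 ± 0.38 in WT-Control, so that WT-DR was the low group (1.89, standard error 0.25, adjusted p = 0.000569). A probe set of *Elovl6*, an elongase gene of lipid synthesis, had −0.79 in the mutant and 2.40 in WT (interaction −3.19, adjusted p = 0.0123), and its interaction was not called in the values per gene (−1.45). The transferrin receptor gene *Tfrc* had −0.28 in the mutant and 1.48 in WT (interaction −1.76, adjusted p = 0.0262).

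Genes of other functions were called too. *Dnaic1*, an axonemal dynein gene, averaged 4.16 ± 0.47 in DR 30% and 6.62 ± 0.34 in Control, against 3.66 ± 0.15 in WT-DR and 4.28 ± 0.46 in WT-Control (interaction −1.84, standard error 0.35, adjusted p = 0.0145), with Control as the high group. All groups but Control lay near or below the array median, where dim and absent transcripts cannot be told apart. A decrease in WT could therefore hardly be seen, and the interaction may reflect this limit. *Spc25*, a kinetochore gene, had 0.51 in the mutant (adjusted p = 0.102) and −1.90 in WT (interaction 2.40, standard error 0.27, adjusted p = 4.78e-05). *Gpx6* (2.09, adjusted p = 0.0012) and *Pnldc1* (1.79, adjusted p = 0.00631) had positive interactions, and *Slc16a5* (−1.95, adjusted p = 0.0103), *Smoc2* (−1.81, adjusted p = 0.0372) and *1810053B23Rik* (−2.22, adjusted p = 0.0183) negative ones. Among the 22 genes named here with an interaction, the calls of *Acot1*, *C8a*, *Cyp17a1*, *Elovl3*, *Hsd3b5*, *Mfsd2a*, *Smoc2* and *Tfrc* were lost without single mice, each of them without WT-DR 423 (adjusted p = 0.0944, 0.0588, 0.0557, 0.0814, 0.0507, 0.0678, 0.0782 and 0.0523 in this order). *Cyp17a1* lost it also without Control 321, DR 30% 366 or WT-Control 401, *Tfrc* also without DR 30% 366 or 368, WT-Control 401 or 403 or WT-DR 424, and *Acot1*, *C8a*, *Elovl3*, *Mfsd2a* and *Smoc2* without many of the other mice. The clock genes had 0 interactions among 15 repressors and outputs and 0 among the 6 activators and genes that peak with them. The ER and integrated stress genes had 0 of 31. *Hyou1*, for example, had −0.94 in the mutant and −0.19 in WT (interaction −0.75, adjusted p = 0.114), and *Manf* −1.05 and −0.18 (−0.87, adjusted p = 0.218), so that a difference of either kind was not shown.

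**Figure D5:**
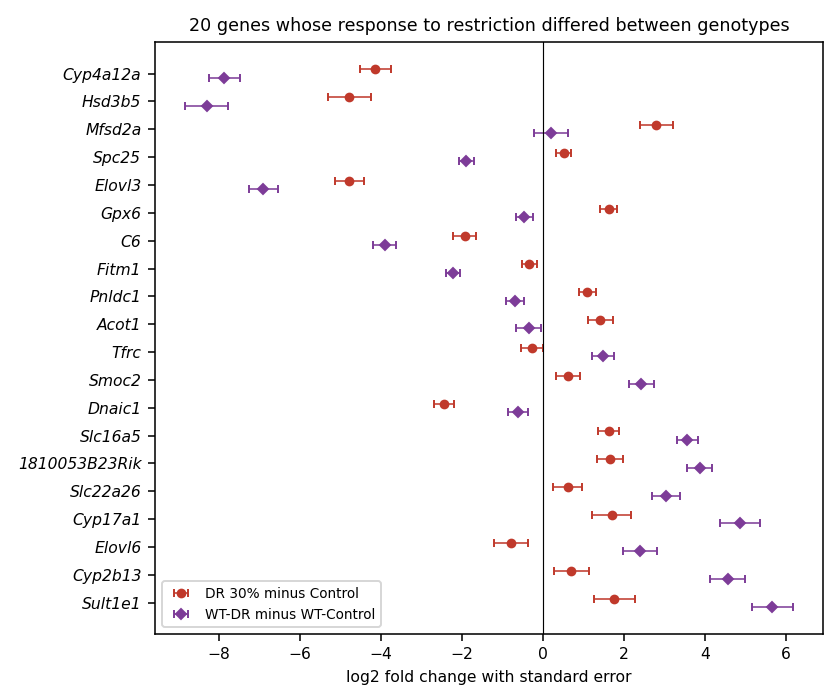
Log2 fold change with its standard error in DR 30% vs Control (red circles) and WT-DR vs WT-Control (purple diamonds) for the 10 genes with the largest positive and the 10 with the largest negative interaction. *Mfsd2a*, *Acot1*, *Gpx6*, *Pnldc1* and *Dnaic1* changed by more in the mutant, and the other genes by more in WT. Both WT groups of *Dnaic1* lay near or below the array median, where a decrease may be understated.

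Over the whole array, a difference between the groups in the spread of their mice was not shown. The root mean square distance of a mouse from the mean of the other mice of its group was 0.208 ± 0.023 in DR 30% and 0.223 ± 0.027 in Control (log2, SD, n = 5 each, exact two-sided permutation test, p = 0.349). Without Control 323, the Control mouse closest to its group, the difference had p = 0.0476 in the same exact test. Each distance uses the other mice of the group, so the distances depend on each other. The test treated them as fixed values, so its p is approximate. The mean of the 104 control probe sets of the array was 6.21 ± 0.03 in DR 30% and 6.22 ± 0.04 in Control. In single genes the spread differed, as in *Usp2*, with an SD of 0.40 in DR 30% and 1.91 in Control, where Control 327 stood apart. In *Hsd3b5* the SD was 1.83 in DR 30% and 0.34 in Control.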

How the data were processed

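RNA of livers was hybridised to Affymetrix HT MG-430 PM arrays, 1 per mouse, in groups assigned from the labels. The deposited values are log2 intensities that the authors made with RMA (version not given in the sources used here) on a public array analysis service, after excluding RNA with an integrity number below 8. The table of 45141 probe sets was used, of which 28898 named 1 gene, 551 several genes and 15692 no gene, and a table of values per gene from the same arrays served as an alternative. Control probe sets were kept in the fit. An array yields no read depth, so the number of mice limits the precision.

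A means model of 5 groups was fitted with limma 3.58.1 (R 4.3.3) and p-values were adjusted by Benjamini-Hochberg over all probe sets. A DEG had to pass an adjusted p of 0.05 and to change 1.5-fold or more. The interaction was the fold change in the mutant minus that in WT. The fit was tested on simulated data. Genes were named by rankings, by lists or singly. Rankings gave the 15 largest increases and 15 largest decreases without overlap of mice and the 10 smallest adjusted p. They also gave the 10 largest interactions of each sign and the 6 DEGs with most spread in DR 30%. Lists gave core and most certain genes of 39 lists and called cell type markers, and *Ercc1* and *Cdkn1a* were chosen singly. Ranked genes were read from the probe set that ranked them, and the others from the brightest probe set. *Fmo2*, *Nipal1* and *Cyp7b1* were given by another probe set than the brightest one. Their brightest probe sets, which entered the list counts and medians, had 2.84, 3.18 and −1.68. *Noct*, *Saa4* and *Slc51b* were named after their values were seen. The gene lists and members were chosen with earlier results of these data known. Promoters came from RefSeq (GRCm38.p6), searched with Python 3.11.15, and 28689 of the probe sets with 1 gene matched RefSeq. Alternatives were other fold changes, values per gene, only the groups compared, dim probe sets left out, quantile normalization, median centring, trend with robust eBayes and each mouse left out. Some items are not reported here.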

Additional observations from a re-analysis of the deposited data

Results flagged for a closer look

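In 26 of 304 groups of 5 mice tested (8.55%), 1 mouse lay far from the other 4 by Dixon's test at the 95% level, where chance flags about 1 in 20 groups. The genes share mice, so the groups are not independent. Levels are log2 intensities. DR 30% 362 stood apart in *Ccne2* at 4.53, *Cyp2a5* at 12.42, *Ehhadh* at 12.32, *Enho* at 7.56, *Pnpla3* at 6.12, *Saa1* at 8.20 and *Txn2* at 10.04. It also stood apart in the mean of the clock activators and genes that peak with them, at 6.81, and in its distance from its group, at 0.248. Control 327 stood apart in *Cela1* at 10.22, *Ciart* at 6.52, *Hsd3b4* at 7.76, *Igfbp1* at 10.59, *Usp2* at 8.10 and the mean of the clock repressors and outputs at 8.38. DR 30% 368 stood apart in *Alas2* at 6.58, *Slc22a7* at 9.43 and *Trib3* at 8.40. Control 321 stood apart in *Cdkn2c* at 6.33, *Cpt1a* at 10.85 and *Cry1* at 8.16. Control 326 stood apart in *Acot3* at 5.92. DR 30% 366 stood apart in *Cyp2b13* at 5.60. Control 325 stood apart in *Mmp14* at 7.49. Control 323 stood apart in *Slc16a5* at 5.68. DR 30% 365 stood apart in *Spc25* at 7.28.

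The interaction differed from 0 in 22 of the genes given in the report. Positive values (log2, mutant minus WT) were found for *Acot1* (1.76), *C6* (1.98), *C8a* (1.30), *C9* (1.08), *Cyp4a12a* (3.72), *Elovl3* (2.13), *Fitm1* (1.89), *Gpx6* (2.09), *Hsd3b5* (3.52), *Mfsd2a* (2.60), *Pnldc1* (1.79), *Spc25* (2.40), and negative ones for *1810053B23Rik* (−2.22), *Cyp17a1* (−3.17), *Cyp2b13* (−3.86), *Dnaic1* (−1.84), *Elovl6* (−3.19), *Slc16a5* (−1.95), *Slc22a26* (−2.43), *Smoc2* (−1.81), *Sult1e1* (−3.90), *Tfrc* (−1.76). The cause of these differences was not tested.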

How the results depend on the processing

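No paired analysis was possible because no animal number occurs in more than 1 group. In DR 30% vs Control, 2294 probe sets were higher and 1668 lower with no minimum fold change, 218 and 155 at 2-fold, and 295 and 212 in the values per gene, a shorter table. In WT-DR vs WT-Control these counts were 4627 and 4226, 430 and 398, and 488 and 507. The interaction called 70 positive and 61 negative probe sets at 2-fold, and 127 and 58 in the values per gene. With 1 mouse left out, DR 30% vs Control called 564 to 782 higher and 373 to 507 lower, WT-DR vs WT-Control 1363 to 1714 higher and 1082 to 1332 lower, and the interaction 100 to 427 positive and 57 to 325 negative. The interaction counts moved by over 1.5 times without Control 321, DR 30% 362, 365, 366, 368 or 369, WT-Control 401 or 403, or WT-DR 421, 423, 424 or 425, and the cause was not tested. The difference in distance between mice was −0.0341 to −0.00251, with the exact permutation p at 0.0476 without Control 323. All other settings kept these counts within 1.5 times. Of 121 called genes examined singly, 85 kept their call under each alternative. Beyond single mice and values per gene, other settings cost calls too. Fitting only the groups compared lost *Ccne2*, *Cyp17a1*, *Cyp1a2*, *Ddit4*, *Gsta2*, *Lpin1*, *Per2*, *Ppp1r3c* and *Sult1e1*. Trend with robust eBayes lost *Arntl*, *Cyp17a1*, *Lpin1*, *Marco*, *Per2*, *Ppp1r3c* and *Sult1e1*. Quantile normalization lost *Gbp3*, *Marco* and *Prodh*, and median centring lost *Ppp1r3c*. In the values per gene *Ptbp1* had 0.18 in the mutant and 0.18 in WT, and *Pck1* had −0.048 in WT and an interaction of 1.39, each with the opposite sign, and the cause was not tested. Of 24 uncalled genes, 3 were called under an alternative, *Pck1* in the values per gene (1.35), *Hspa1b* with only the groups compared (adjusted p = 0.00468) and *Spc25* without DR 30% 365 (0.65).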
